A study of Mus musculus with 8 samples.

Results

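miR-21a, miR-146a, miR-146b and miR-155 are the microRNAs (miRNAs, small regulators that pair with messenger RNAs and reduce their protein yield) widely followed as readouts of inflammatory signalling in blood cells. All rows of the deposited miRNA table that carry one of these names were taken, on any strand, which gave 4 of 190 rows. They are listed as mmu-miR-21a-5p, mmu-miR-146a-5p, mmu-miR-146b-5p and mmu-miR-155-5p, and the species prefix is left out from here on. Rows were taken by name alone, and the names themselves were picked with earlier results of these data known. The table held no row for the other strand of any of the 4 hairpins.

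The samples were mouse bone marrow LSK cells, a sorted fraction without lineage markers that carries Sca1 and cKit and in which haematopoietic stem cells and early progenitors are found. The db/db group had 4 libraries from mice with both copies of Lepr, the leptin receptor gene, carrying the db mutation (strain B6.BKS(D)-Leprdb/J), a model of obesity with type 2 diabetes. The db/m group had 4 libraries from heterozygous mice (B6.BKS(D)-Leprdb/+), so the controls carry 1 mutant allele too, and the labels put both groups at 6 months after diabetes. All 8 titles say db/m, so genotype and strain labels were used to form the groups, and nothing in the labels gives an age, says whether animals were pooled or says whether libraries came from separate animals. p-values here therefore measure only the spread between these libraries, which may be technical.

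All 4 miRNAs are tied to NF-kB, the transcription factor that Toll-like and cytokine receptors activate. miR-155 is transcribed on such signals and is known to favour inflammation, in part by lowering Inpp5d (the phosphatase SHIP1), and raised miR-155 expands myeloid cells in mice. miR-146a is induced by NF-kB and lowers Traf6 and Irak1, signalling proteins upstream of NF-kB, and mice without it develop myeloid overgrowth and lose stem cells with age. miR-146b comes from another gene and has the same seed, while miR-21 is driven by STAT3 and AP-1 and lowers Pdcd4.

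The mature sequences are shown because the comparison turns on which of these miRNAs share targets. They are RefSeq sequences on GRCm38.p6 (the mm10 build), written 5′ to 3′ with the seed, bases 2 to 8, in capitals.
miR-21a-5p: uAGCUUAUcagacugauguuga
miR-146a-5p: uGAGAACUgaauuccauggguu
miR-146b-5p: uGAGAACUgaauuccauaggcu
miR-155-5p: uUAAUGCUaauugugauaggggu

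The seed was shared within the miR-146 pair and differed between the others. The 2 mature miR-146 sequences are 22 bases long and differ at 2 positions outside the seed, G18A and U21C, counted from the 5′ end with the base of miR-146a-5p first. No other row of the table carried any of these 3 seeds. The sources used here do not say how reads that fit both miR-146 sequences were assigned, so counts of single members of the pair are uncertain and the pair is also given as a sum.

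On GRCm38 the miR-146a hairpin (gene Mir146) lies on chromosome 11 from 43374397 to 43374461, minus strand, inside no other annotated gene in GENCODE M21. The miR-21a hairpin lies on the same chromosome and strand from 86584067 to 86584158, in an annotated exon of the host gene Vmp1. The miR-146b hairpin lies on chromosome 19 from 46342762 to 46342870, plus strand, in an intron of Mfsd13a. The miR-155 hairpin lies on chromosome 16 from 84714140 to 84714204, plus strand, in an exon of its long noncoding host Mir155hg. The 4 miRNAs thus come from 4 separate loci.

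A site in a well-known target shows what each seed pairs with. The capitals mark the match to bases 2 to 8 followed by A, and the sequences are from GENCODE M21 transcripts.
Traf6 for miR-146a and miR-146b, chr2:101697945-101697966, plus strand: ccgctctggtgttgAGTTCTCA
Inpp5d for miR-155, chr1:87719824-87719845, plus strand: agatgtttttaaaaAGCATTAA
Pdcd4 for miR-21a, chr19:53929418-53929439, plus strand: gtgtgggtgttctgATAAGCTA

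The longest 3′ UTR of Traf6 held 4 such matches, the first of them shown, and those of Inpp5d and Pdcd4 held 1 each. Searched on the transcript strand, the match was present in the longest 3′ UTR of 4.08% of 20996 genes for the miR-146 seed (AGTTCTCA), 3.00% for miR-155 (AGCATTAA) and 2.11% for miR-21a (ATAAGCTA). These are letter matches only, and no messenger RNA was measured here.

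The table held 371637 counts, between 13273 and 77834 per library, and 144 of 190 miRNAs passed the filter on low counts, all 4 described here among them. The shallowest library was db/m replicate 2, in which 1 count was worth 76.4 CPM (counts over the TMM-adjusted library total), against 13.4 in db/m replicate 3. The 4 miRNAs took 15964 counts, or 4.30% of the total. Titles open with 1 of 4 numbers, each found in a single genotype, so number and genotype cannot be told apart. In RNA from a bulk sort, fewer cells of a type and less RNA per cell cannot be told apart either.

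Between the genotypes none of the 4 miRNAs passed an adjusted p of 0.05. miR-21a-5p and miR-146b-5p had higher mean levels in db/db LSK cells, by 1.33-fold and 1.42-fold, and miR-146a-5p had a mean level 1.46-fold lower. miR-155-5p differed least, with a fold of 1.13. By edgeR's quasi-likelihood test over all 144 miRNAs, 4.86% passed in either direction, 2.78% higher and 2.08% lower in db/db, which is the background for 0 of 4. At unadjusted p under 0.05 the count was 2 of 4, both higher, where 22.2% of all tested miRNAs had such a p, 10.4% on the higher and 11.8% on the lower side.

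**Figure D1:**
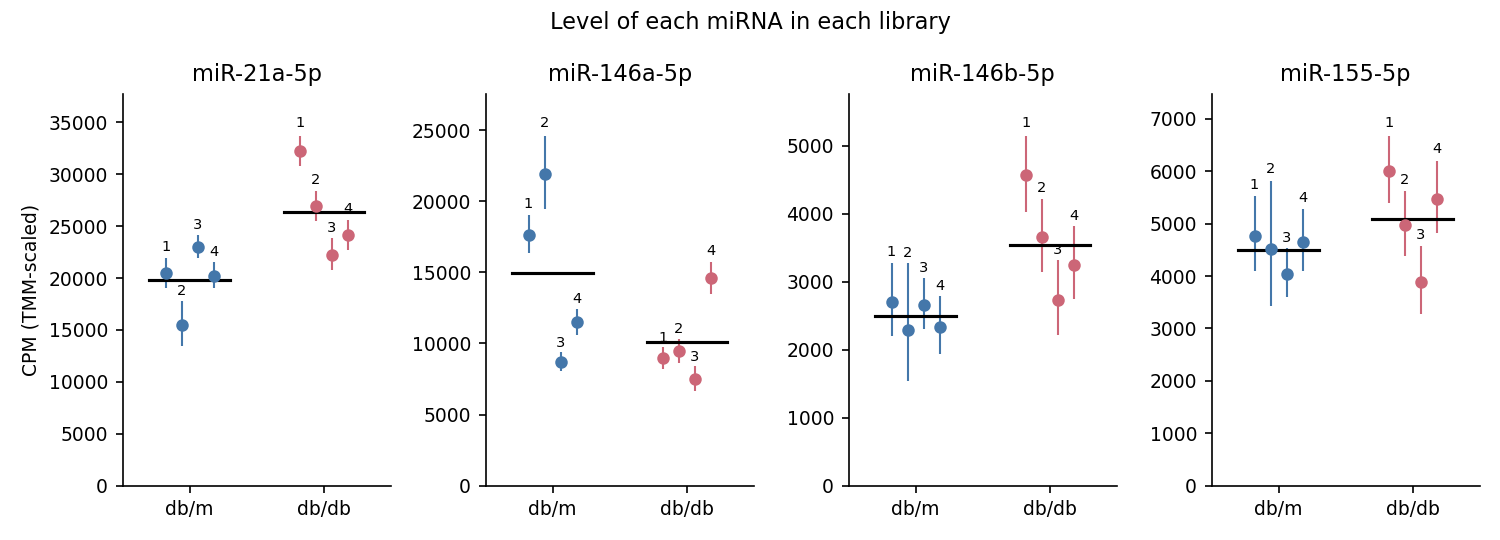
Level of each miRNA in CPM (TMM-scaled, axis from 0) in the 4 db/m and 4 db/db libraries, numbered by replicate. Points are libraries, vertical bars are 95% Poisson intervals that cover counting error only, and horizontal lines are group means. The db/db libraries lie above all db/m libraries for miR-146b-5p, by a narrow margin, and the groups overlap for the other 3.

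miR-21a-5p, raised in many inflamed and dividing tissues, was the most abundant of the 4 and ranked 11 of 190 by mean CPM. Its level was 20481, 15511, 22993 and 20248 CPM in db/m replicates 1 to 4. In db/db replicates 1 to 4 it was 32236, 26934, 22261 and 24154 CPM. The groups met only at their edges: the lowest db/db library, replicate 3, lay just under the highest db/m library, also its replicate 3. The db/db mean of 26396 ± 4341 CPM stood against 19808 ± 3122 CPM for db/m (± SD, n = 4 per genotype, as for all means below). The log2 fold change was 0.41 (SE 0.17, 95% interval 0.04 to 0.78), with an adjusted p of 0.171 by edgeR. As a share of all counts, free of any scaling factor, miR-21a-5p held 2.72% ± 0.501 in db/db against 1.89% ± 0.275 in db/m, and here the groups did not overlap (exact two-sided permutation p = 0.0286, adjusted over the 4 miRNAs 0.0571). Shares did not overlap for 17.4% of all tested miRNAs, with 11.8% on the higher and 5.56% on the lower side. The TMM factors were below 1 in all 4 db/m libraries and above 1 in all 4 db/db libraries, and library totals, on which shares rest, raise the median log2 fold change of all tested miRNAs by 0.11. With 4 libraries in each genotype no exact p can fall under 0.0286.

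miR-146a-5p, the NF-kB-induced brake on Traf6 and Irak1, ranked 21 of 190. It stood at 17646, 21930, 8726 and 11494 CPM in db/m replicates 1 to 4. In db/db replicates 1 to 4 it stood at 8956, 9464, 7483 and 14594 CPM. The 2 highest values were db/m libraries and the lowest was a db/db library, but db/m replicate 3 lay below 3 of the 4 db/db libraries and db/db replicate 4 lay above 2 of the db/m libraries. The db/db mean was 10124 ± 3096 CPM, against 14949 ± 5963 CPM for db/m. The log2 fold change was -0.55 (SE 0.29, 95% interval -1.19 to 0.09; edgeR adjusted p = 0.308), an interval that runs from a 0.438-fold to a 1.07-fold level. Without db/m replicate 3 it was -0.83 with an edgeR adjusted p of 0.043, in a fit where 12.5% of 144 miRNAs passed, with 7.64% on the lower side. Leaving out each of the other 7 libraries gave no call, the weakest value being -0.34 without db/m replicate 2, the shallowest library and the one with the highest level. Its share of all counts was 1.04% ± 0.304 in db/db, against 1.43% ± 0.591 in db/m (exact two-sided permutation p = 0.229, adjusted 0.229). That difference of -0.394 percentage points was -0.152 without db/m replicate 2.

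miR-146b-5p, the seed partner of miR-146a-5p, was the least abundant of the 4 and ranked 42. Its level was 2703, 2292, 2662 and 2337 CPM in db/m replicates 1 to 4, resting on 102, 30, 198 and 122 counts. In db/db replicates 1 to 4 it was 4565, 3653, 2729 and 3246 CPM, resting on 262, 188, 101 and 147 counts. The 4 db/m libraries lay close together and every db/db library lay above them, as was so for 8.33% of all tested miRNAs on the higher side. In all, 17.4% of tested miRNAs had groups that did not overlap, with 9.03% on the lower side, against 1 of the 4 described here. The lowest db/db library exceeded the highest db/m library by less than the counting error of either, whose 95% Poisson intervals ran from 2222 to 3315 and from 2204 to 3281 CPM. The db/db mean was 3548 ± 777 CPM, against 2499 ± 214 CPM for db/m. The log2 fold change was 0.50 (SE 0.21, 95% interval 0.05 to 0.96; edgeR adjusted p = 0.171). Its share of all counts was 0.366% ± 0.0871 in db/db, against 0.239% ± 0.0164 in db/m (exact two-sided permutation p = 0.0286, adjusted 0.0571).

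miR-155-5p, the pro-inflammatory member, ranked 34. Its level was 4769, 4508, 4047 and 4655 CPM in db/m replicates 1 to 4. In db/db replicates 1 to 4 it was 6012, 4975, 3890 and 5475 CPM. Of the db/db libraries 3 lay above all db/m libraries, and db/db replicate 3 lay below all of them. The db/db mean was 5088 ± 904 CPM, against 4495 ± 317 CPM for db/m. The log2 fold change was 0.18 (SE 0.19, 95% interval -0.23 to 0.60; edgeR adjusted p = 0.631), which leaves room for differences between a 0.851-fold and a 1.51-fold level. Its share of all counts was 0.525% ± 0.099 in db/db, against 0.430% ± 0.0288 in db/m (exact two-sided permutation p = 0.114, adjusted 0.152). In db/db replicate 3, miR-21a-5p, miR-146b-5p and miR-155-5p all had their lowest db/db level, so leaving it out favours a separation of the groups. Without it, the shares of these 3 miRNAs each had an exact permutation p of 0.0286 and an adjusted p of 0.0381. For miR-21a-5p and miR-146b-5p the exact permutation p was 0.0286 with all libraries too. Their adjusted p fell only because miR-155-5p reached the same exact p. That exact p is the smallest possible without 1 library. How many of all tested miRNAs reach it there was not computed, so the count of 3 has no background and is not a result about these miRNAs. Leaving out each of the other 7 libraries took no share past 0.05, with exact permutation p-values adjusted over the 4 miRNAs of 0.0571 to 0.114 for miR-21a-5p and miR-146b-5p and 0.229 to 0.267 for miR-155-5p. These leave-outs of shares were added after the data were examined.

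**Figure D2:**
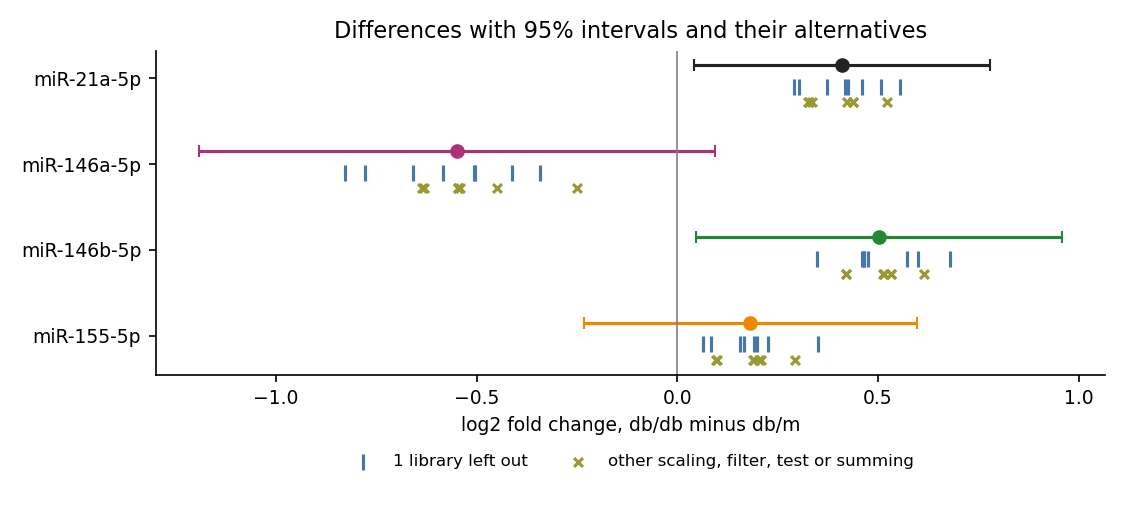
Log2 fold change of db/db minus db/m for each miRNA: the upper point of each row is the fitted value with its 95% interval, blue ticks are fits with 1 library left out, and crosses are fits with another scaling, filter, test or summing of libraries. The values keep their side of 0 in every such fit, and the widest spread, -0.83 to -0.25, is that of miR-146a-5p.

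The order of the levels was miR-21a-5p, miR-146a-5p, miR-155-5p and miR-146b-5p in both genotypes. Library preparation can favour one sequence over another, so this is an order of counts. miR-155-5p exceeded miR-146b-5p in 8 of 8 libraries, and miR-146a-5p exceeded miR-155-5p in 8 of 8. miR-21a-5p exceeded miR-146a-5p in 7 of 8, the exception being db/m replicate 2 with 0.707 counts of miR-21a-5p per count of miR-146a-5p. In db/m the levels of these top 2 overlapped across libraries, and in db/db they did not.

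The miRNAs differed in how much they varied within a genotype. miR-146a-5p had a coefficient of variation of 39.9% in db/m and 30.6% in db/db, where counting alone would give 4.53% and 4.78%. miR-146b-5p varied by 8.55% in db/m, less than the 11.9% that counting would give, and by 21.9% in db/db. miR-155-5p likewise varied by 7.05% in db/m, with 8.65% from counting, and by 17.8% in db/db. miR-21a-5p varied by 15.8% and 16.4%. The biological coefficient of variation that edgeR estimated was 0.298 for miR-146a-5p, above the median of 0.266 over all tested miRNAs. From the lowest up, miR-146a-5p ranked 97 of 144. The values were 0.192, 0.197 and 0.211 for miR-21a-5p, miR-155-5p and miR-146b-5p. The latter 3 were among the 29 lowest of 144.

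**Figure D3:**
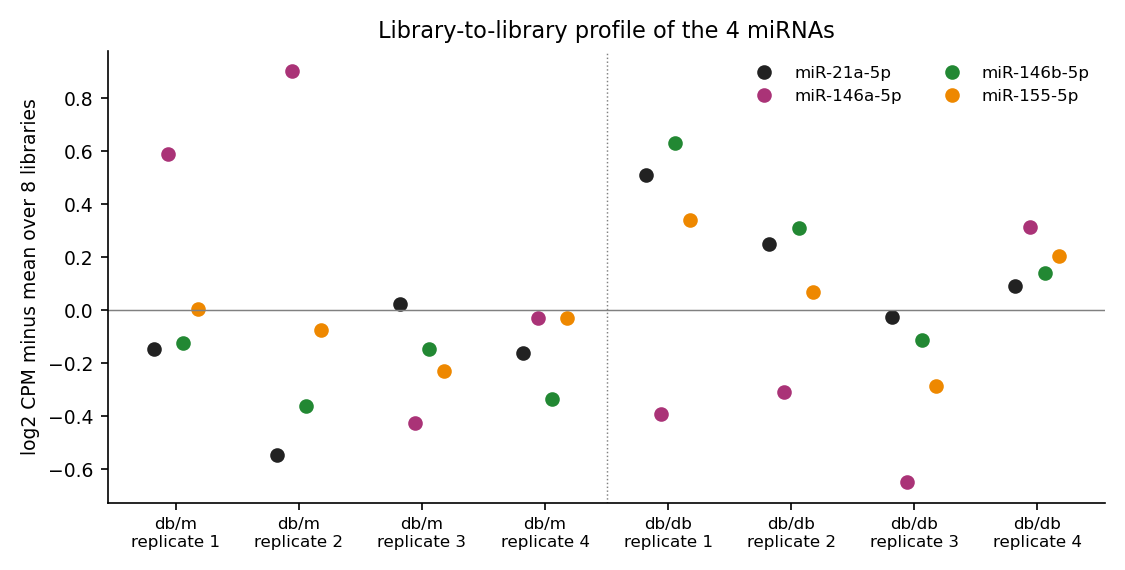
Log2 CPM of the 4 miRNAs in each library, each minus its own mean over the 8 libraries, with db/m to the left of the dotted line and db/db to the right. miR-21a-5p, miR-146b-5p and miR-155-5p are all highest in db/db replicate 1, while miR-146a-5p is highest in db/m replicate 2 and lowest in db/db replicate 3.

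Across the 8 libraries miR-21a-5p and miR-146b-5p had nearly the same profile. The Pearson correlation of their log2 CPM was 0.92 over 8 libraries, and 0.82 after each genotype's mean was removed, given as a description since the values share library and scaling. Each library held between 6.77 and 8.66 counts of miR-21a-5p per count of miR-146b-5p. The mean log2 ratio was 2.91 ± 0.09 in db/db against 2.98 ± 0.17 in db/m, a difference of -0.07 (exact two-sided permutation p = 0.514). miR-146b-5p and miR-155-5p had a correlation of 0.74, and 0.71 within genotypes. miR-146a-5p stood apart from its seed partner, with a correlation of -0.42 to miR-146b-5p, -0.06 within genotypes, and of -0.68 to miR-21a-5p.

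Ratios within a library need no scaling, and all 6 pairs were compared. Counts of miR-146a-5p per count of miR-146b-5p were 6.53, 9.57, 3.28 and 4.92 in db/m replicates 1 to 4. For db/db replicates 1 to 4 they were 1.96, 2.59, 2.74 and 4.50. All db/db libraries but replicate 4 lay below all db/m libraries. The mean log2 ratio was 1.49 ± 0.50 in db/db against 2.49 ± 0.65 in db/m, that is 2.81 against 5.63 counts as geometric means. The exact two-sided permutation p was 0.0571, and 0.129 after adjustment over the 6 pairs. The log2 ratio of miR-146b-5p to miR-155-5p was -0.53 ± 0.16 in db/db against -0.85 ± 0.18 in db/m (exact permutation p = 0.0571, adjusted 0.129). The ratio of miR-21a-5p to miR-146a-5p differed by 0.93 on the log2 scale and that of miR-146a-5p to miR-155-5p by -0.68 (exact permutation p = 0.0857 and adjusted 0.129 for both). For miR-21a-5p over miR-155-5p the difference was 0.25 (exact permutation p = 0.229, adjusted 0.274). No pair passed, and in all 6 the groups overlapped. Even at the smallest exact permutation p of 0.0286, 1 separated pair alone could not pass after adjustment over 6 pairs, so that outcome says little. Without db/m replicate 2 the difference fell to 0.60 for miR-21a-5p over miR-146a-5p and to 0.14 for miR-21a-5p over miR-155-5p, and that of miR-21a-5p over miR-146b-5p was -0.14. With libraries of 1 title number summed these differences were 0.58, 0.14 and -0.17, and for miR-146a-5p over miR-155-5p the value was -0.44.

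**Figure D4:**
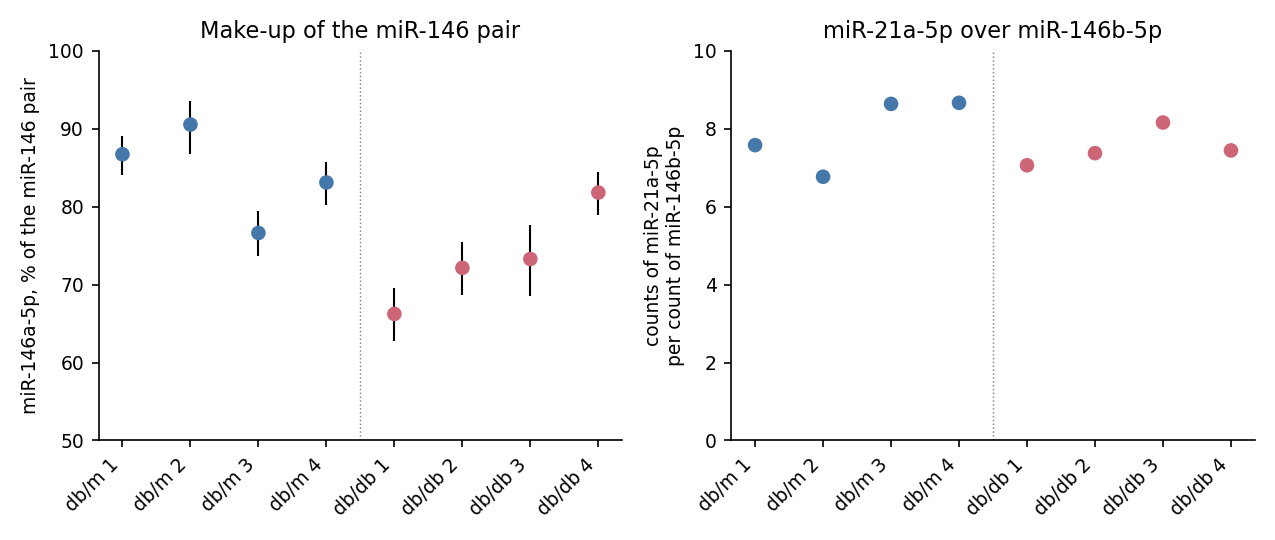
Left, the share of miR-146a-5p in the summed counts of miR-146a-5p and miR-146b-5p per library, in percent, with exact 95% binomial intervals (axis from 50%). Right, counts of miR-21a-5p per count of miR-146b-5p (axis from 0). Blue points are db/m and red points db/db libraries. The share of miR-146a-5p runs from 76.6% to 90.5% in db/m and from 66.2% to 81.8% in db/db, while the ratio on the right stays between 6.77 and 8.66.

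As 1 seed family, the miR-146 pair stayed mostly miR-146a-5p in every library. Its share of the pair was 86.7%, 90.5%, 76.6% and 83.1% in db/m replicates 1 to 4. For db/db replicates 1 to 4 it was 66.2%, 72.1%, 73.3% and 81.8%. The db/db average was 73.4% ± 6.42, against 84.2% ± 5.92 for db/m (exact two-sided permutation p = 0.0571). The summed level of the pair was 13673 ± 3145 CPM in db/db, against 17448 ± 5891 CPM in db/m. Fitted as 1 row, the sum had a log2 fold change of -0.34 (SE 0.25, 95% interval -0.89 to 0.20; edgeR adjusted p = 0.499). The sum carries the sign of miR-146a-5p, its larger part, and not that of miR-146b-5p. The pair as a sum was added after the data were examined.

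Libraries that share a title number were set side by side. The 2 db/db libraries of one number, replicates 1 and 2, averaged 29585 CPM of miR-21a-5p and 4109 CPM of miR-146b-5p. The 2 of the other number, replicates 3 and 4, averaged 23208 and 2987 CPM. For miR-146a-5p these averages were 9210 and 11039 CPM, and for miR-155-5p they were 5493 and 4683 CPM. In db/m, replicates 1 to 3 of one number spanned 8726 to 21930 CPM of miR-146a-5p, and replicate 4, the only library of its number, lay inside that span at 11494 CPM.

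Leaving out the 4 themselves, of which miR-21a-5p and miR-146b-5p correlated at 0.92 with each other, the most alike miRNAs were taken for each. These were the 3 with the highest Pearson correlation of log2 CPM over the 8 libraries. For miR-21a-5p they were miR-29c-3p (0.91), miR-29a-3p (0.85) and miR-340-5p (0.83). For miR-146b-5p they were miR-29c-3p (0.90), miR-26a-5p (0.84) and miR-126a-3p (0.84), the last of which rose in db/db from 9312 to 24199 CPM (edgeR log2 fold change 1.38, adjusted p = 0.00532). For miR-155-5p they were miR-30c-5p (0.83), miR-26b-5p (0.75) and miR-26a-5p (0.74). miR-146a-5p had another set, let-7g-5p (0.92), let-7f-5p (0.88) and miR-3473b (0.82). With genotype means removed, let-7f-5p correlated at 0.98 with miR-146a-5p, and miR-126a-3p at 0.54 with miR-146b-5p.

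The rest of the inflammatory network was read from 2 lists. The first held 15 miRNAs known to be transcribed on NF-kB, Toll-like receptor or cytokine signals, of which 7 were tested. The log2 fold change was positive for 5 and negative for 2. Of these 7, 0 passed and 0 had an unadjusted p under 0.05, where 4.86% and 22.2% of all tested miRNAs did, and with 7 members a count of 0 is near that background. The median log2 fold change of the list was 0.03, beside -0.03 over all 144 tested. Its most abundant members were miR-125a-5p, which targets the NF-kB inhibitor A20 (Tnfaip3), with means of 31384 (db/m) and 32057 CPM (db/db), and miR-221-3p, which targets the receptor Kit, with 5890 and 5970 CPM. Their log2 fold changes were 0.03 (SE 0.18) and 0.01 (SE 0.20).

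The second list held 25 miRNAs known to target messengers of these pathways, of which 20 were tested, 11 above 0 and 9 below, with a median of 0.09. Of these 20, 0 passed an adjusted p of 0.05, and 4 had an unadjusted p under 0.05, a share close to the 22.2% of all tested miRNAs. On the higher side these were miR-26a-5p (log2 fold change 0.46, SE 0.16, edgeR adjusted p = 0.111) and miR-125b-5p, which targets Tnfaip3 and is abundant in stem cells (0.40, SE 0.17, adjusted p = 0.171). On the lower side they were miR-92a-3p of the miR-17 cluster (-0.56, SE 0.21, adjusted p = 0.136) and the lymphocyte miRNA miR-150-5p (-0.63, SE 0.27, adjusted p = 0.183). The most abundant members were miR-16-5p, with means of 85857 (db/m) and 81574 CPM (db/db) and a log2 fold change of -0.07 (SE 0.12), and miR-92a-3p, with 73806 and 50049 CPM. Without db/m replicate 3, 2 of the 26 members of both lists tested there passed by edgeR, a smaller share than the 12.5% of all miRNAs in that fit, miR-150-5p lower (-0.89, adjusted p = 0.0351) and miR-30e-5p higher (1.18, adjusted p = 0.0125).

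**Figure D5:**
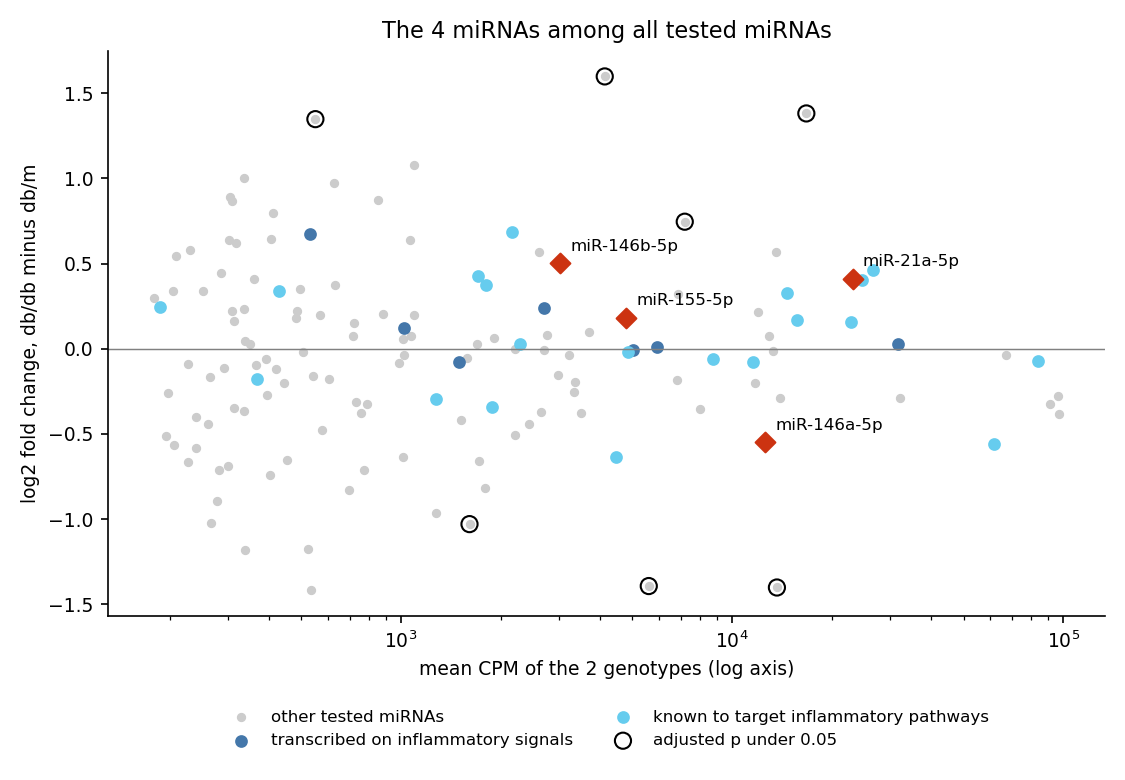
Log2 fold change of db/db minus db/m against mean CPM (log axis) for the 144 tested miRNAs. Red diamonds are the 4 miRNAs described here, blue points are members of the 2 inflammatory lists, grey points are all others, and rings mark the 7 miRNAs with an adjusted p under 0.05 by edgeR. No diamond and no blue point carries a ring.

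Because these 4 miRNAs are also expressed by mature blood cells, lineage markers were read beside them. The 3 tested myeloid markers, miR-223-3p and both strands of miR-142a, summed to between 20478 and 30226 CPM in db/m and between 21049 and 28768 CPM in db/db. The 4 lymphoid markers, miR-155-5p itself among them, summed to 25063 to 26742 CPM in db/m and 20424 to 26989 CPM in db/db. Of these 7 miRNAs 0 passed, where 4.86% of all tested miRNAs did, so a count of 0 is near that background. The log2 fold change was below 0 for 2 of the 3 myeloid and 3 of the 4 lymphoid markers. Among the latter, miR-150-5p had an unadjusted edgeR p of 0.0381 (adjusted 0.183). The only erythroid marker read was miR-486a-5p, at 2252 to 3388 CPM in db/m and 1108 to 5754 CPM in db/db. The stromal list had 2 rows, which summed to 76.4 to 498 CPM in db/m and 175 to 1236 CPM in db/db. The muscle, liver, brain and pancreas list also had 2 rows, with 460 to 1605 CPM in db/m and 470 to 1837 CPM in db/db. Among the 7 tested stem and progenitor markers every log2 fold change was positive, the smallest being 0.03 (SE 0.18) for miR-125a-5p. Of these 7 rows 3 rose, miR-196b-5p and both strands of miR-126a, which come from 1 hairpin. Of all tested miRNAs, 2.78% passed on the higher side. This list was chosen with earlier results of these data known, so its count is a description only. The stem and progenitor markers summed to 56177 to 84865 CPM in db/m and 80804 to 113903 CPM in db/db. The part of these markers in the values of miR-21a-5p and miR-146b-5p was not tested.

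In the authors' deposited table, which tests all 190 rows, none of the 4 passed a false discovery rate of 0.05. The authors' deposited table gave miR-146a-5p a log2 fold change of -0.64 with a p-value of 0.0463 and a false discovery rate of 0.258. For miR-146b-5p the authors' deposited table gave 0.42 (false discovery rate 0.302), for miR-21a-5p 0.33 (0.349) and for miR-155-5p 0.10 (0.858). There miR-146a-5p had the smallest p of the 4, whereas in the fit used here miR-21a-5p did.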

How the data were processed

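Small RNA was sequenced from sorted LSK cells with the QIAseq miRNA kit, per the labels' protocols. For each mature miRNA and library the authors deposited raw counts, with log2 CPM, a log2 fold change, a signed fold change (read as a score) and p-values with false discovery rates for diabetic against control libraries, per the file headers. Per the submitters' processing notes, edgeR 3.41.9 and mm10 were used. No aligner and no handling of molecular identifiers is given in the sources used here. Poisson and binomial intervals of single libraries cover counting error only, while those of log2 fold changes come from the fit and include the spread between libraries. 0 columns were left without a sample. Groups follow the genotype labels, and columns were matched to titles by number and suffix.

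Counts were fitted with edgeR 4.0.16 (R 4.3.3): filterByExpr (minimum count 10, minimum total 15), TMM, estimateDisp, glmQLFit (robust) and glmQLFTest, Benjamini-Hochberg over 144 miRNAs. The SE is the log2 fold change over the square root of F. A likelihood ratio fit of all rows with these groups matched the authors' deposited log2 fold changes within 1.02e-14. Shares and log2 count ratios were compared by exact two-sided permutation over 70 assignments. The edgeR fit, without the filter, was tested on simulated counts, and the permutation test on a small made example with a known difference. Alternatives were RLE, library totals, a library size without the top 5 miRNAs, no filter, DESeq2 1.42.0, the likelihood ratio test, each library left out, and libraries of 1 title number summed.

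Besides the 4 miRNAs, named miRNAs are the 3 most correlated with each (0.5 counts added before the log) and, per list, the 2 most abundant and those with p under 0.05. Members and lists were chosen with earlier results of these data known.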

Additional observations from a re-analysis of the deposited data

Results flagged for a closer look

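The share of all counts taken by miR-155-5p was 0.387% in db/m replicate 3, below the other 3 db/m libraries, which lay within 0.444% to 0.445%. The gap to the nearest of them was 0.988 of the whole range of the group. The limit for a library to be listed here is one that chance passes in about 1 in 20 groups, and 32 groups of values were looked at. A gap as wide as this one is rarer than that, and how rare was not computed. The scaled level of that library, 4047 CPM, did not stand apart in the same way.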

How the results depend on the processing

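The direction of each of the 4 log2 fold changes held under all alternatives run, and 1 call appeared. Without single libraries they ranged from 0.29 to 0.56 for miR-21a-5p, -0.83 to -0.34 for miR-146a-5p (the first past the threshold, adjusted p = 0.043, without db/m replicate 3), 0.35 to 0.68 for miR-146b-5p and 0.06 to 0.35 for miR-155-5p. The number of miRNAs past the threshold was 7, from 3 to 18 without single libraries, 13 by DESeq2 and 15 with libraries of 1 title number summed. Of the 2 inflammatory lists 0 passed, where 4.86% of all tested miRNAs did. Without single libraries 0 to 2 passed, the 2 being of 26 tested without db/m replicate 3, where 12.5% of all miRNAs passed. With title numbers summed 2 of 28 passed (miR-92a-3p and miR-26a-5p), a share close to the 15 of 186 among all miRNAs in that fit. The joint median log2 fold change of the 2 lists, 0.03, ran from -0.016 to 0.18 without single libraries. It was 0.14 under library totals, which shift the median of all tested miRNAs by 0.11. Share differences, in percentage points, ran without single libraries from 0.603 to 0.98 for miR-21a-5p, 0.0886 to 0.156 for miR-146b-5p, -0.595 to -0.152 for miR-146a-5p and 0.0574 to 0.137 for miR-155-5p. Log2 ratio differences ran without single libraries from 0.60 to 1.24 for miR-21a-5p over miR-146a-5p, 0.14 to 0.38 over miR-155-5p and -0.14 to -0.02 over miR-146b-5p. They ran from -1.26 to -0.75 for miR-146a-5p over miR-146b-5p, -0.86 to -0.47 for miR-146a-5p over miR-155-5p and 0.27 to 0.40 for miR-146b-5p over miR-155-5p, and none passed. The causes were not tested. No paired analysis was possible because replicate numbers follow accession order and title numbers occur in 1 genotype only. Strand ratios could not be run, since only 1 strand of each hairpin had a row. With 4 libraries per group, no exact p under 0.0286 can be reached, so 1 share or ratio alone could not pass after adjustment. In addition, db/m replicate 2 rests on 13273 counts.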
